A study of Rattus norvegicus with 24 samples.

Results

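Interleukins, tumour necrosis factor (TNF) superfamily ligands and the receptors of both families were followed across 24 areas of diabetic rat skin wounds at day 7. The members were all targets of the GeoMx probe set whose names have the form of an interleukin, an interleukin receptor, a TNF superfamily ligand or receptor, plus Tnf, Lta, Ltb, Ebi3, Il6st and Il18bp. They came to 114 of the 19962 targets in the files. GeoMx counts barcodes cut with ultraviolet light from probes that are bound to RNA in a chosen area of a tissue section, so each value is the signal of 1 target in 1 area. The animals were male SD rats made diabetic with streptozotocin (STZ) at 5 weeks of age, and each wound was a splinted full-thickness skin defect of 8 mm. The wounds were labelled CuNZ@Gel, Gel or Sham. CuNZ@Gel and Gel name the hydrogels put on the wounds, whose composition the labels do not give, and Sham is not described further. All 3 treatments shared the diabetes, the defect, the splint and the day of harvest, and no wound of a non-diabetic animal was among the samples. Each treatment had 2 specimens, each specimen 2 regions, and each region 2 segments drawn on immunofluorescence (Segment 1 and Segment 2), which gives 8 areas per treatment. The labels name neither the antibodies nor the cells of a segment, and they do not say that the 2 specimens of a treatment are different animals. The specimen was the unit of every main treatment test. The p-values set a difference against the spread between specimens, which was estimated with help from all targets tested. They therefore do not rest on the spread of these 2 specimens per treatment alone.

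Interleukins and TNF family ligands are signals that pass over short distances between cells. A ligand acts only where its receptor chains stand on the receiving cell, and several chains are shared. The common gamma chain Il2rg serves the receptors for IL-2, IL-4, IL-7, IL-9, IL-15 and IL-21, and Il1rap is the second chain for IL-1, IL-33 and IL-36. Soluble antagonists and decoys, such as the IL-1 receptor antagonist Il1rn, hold the signal back. In skin wounds these cytokines recruit and steer neutrophils, macrophages and lymphocytes, and wounds in diabetes are known for inflammation that lasts too long.

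A target was called above background in an area when its signal exceeded the 99th percentile of the 1116 odorant and pheromone receptor targets of that area, genes that skin is not expected to use. That limit lay between 11.4 and 21.6 units (median 14.3). Of the 114 members, 20 (17.5%) exceeded it in 4 or more areas, against 5554 of all 19962 targets (27.8%). They were 14 of 53 receptor chains, 5 of 50 ligands and 1 of 10 antagonists or decoys, while the 1 enzyme (Il4i1) was not among them. The receptors Il1r1, Il13ra1 and Il1rl1 were above background in 24 of 24 areas, Il2rg and Il33 in 23, and Ebi3 in 22. Il6ra was above in 21 areas, Il1rn and Tnfrsf21 in 20, Il1rap and Tnfsf13 in 18, and Il34 in 15. Il15, Il10rb and Il17ra were above in 11 areas, Tnfrsf14 in 10, and Tnfrsf12a and Il7r in 8. Tnfrsf11a and Tnfrsf25, in 6 areas each, were the members just inside the limit of 4 areas, and Il18bp and Tnfrsf18, in 3 areas each, were just outside it. Il18, Il17b, Ltb and Tnfsf9 were above in 1 area each, and the remaining 88 members in none.

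The 88 included most of the classical signals of inflammation. Il1b, the main secreted IL-1, had signals between 1.36 and 10.2 units in the 24 areas (median 4.09). Il6 lay between 1.36 and 9.20 units (median 4.73). Tnf lay between 1.75 and 14.3 units (median 4.88). Il10, an anti-inflammatory cytokine, lay between 2.16 and 12.3 units (median 5.45), so all 4 stayed within the range of the receptor targets that skin does not use. The same held for Tnfrsf1a and Tnfrsf1b, the receptors for TNF, and for Il6st, the signal-passing chain for IL-6 and its relatives. IL-3, IL-5 and their receptors (Il3, Il3ra, Il5, Il5ra) were the only family wholly below background. The target names follow the mouse genome, and 111 of the 114 are also rat symbols. A low signal here is not absence of the RNA, because these files do not show how well each probe binds its rat RNA. For the same reason levels are compared between areas and not between genes. Counts of members above background do set unlike probes against 1 limit, and the part of the probes in these counts was not tested.

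Setting the ligands beside their receptors gave 29 systems. Each chain was scored by whether its own probe passed the limit, so a chain that did not pass is not shown to be absent. A ligand was above background in 5 of them and every listed receptor chain in 7, and both held in 2. The first was the IL-33 system, with the alarmin Il33 (23 areas), its receptor Il1rl1 (ST2, 24 areas) and Il1rap (18 areas). The second was IL-34, with Il34 (15 areas) and Csf1r (24 areas), the receptor that it shares with the macrophage growth factor Csf1. The IL-1 and IL-7 systems had both receptor chains above background but no ligand, and the same held for the single listed receptors of LIGHT, RANKL and TL1A (Tnfrsf14, Tnfrsf11a and Tnfrsf25). The ligands Ebi3, Il15 and Tnfsf13 were above background without a complete receptor. Ebi3 is a cytokine subunit that pairs with Il27 to form IL-27 and with Il12a to form IL-35. Il27 reached at most 16.4 units and Il12a at most 14.3 units, and neither was above background in any area. In the rat gene order of GRCr8, 6 members follow one another on chromosome 9 (Il1r2, Il1r1, Il1rl2, Il1rl1, Il18r1 and Il18rap), and of these Il1r1 and Il1rl1 alone were above background. Of the 6 neighbours Il36g, Il36a, Il36b, Il36rn, Il1f10 and Il1rn on chromosome 3, Il1rn alone was.

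**Figure D1:**
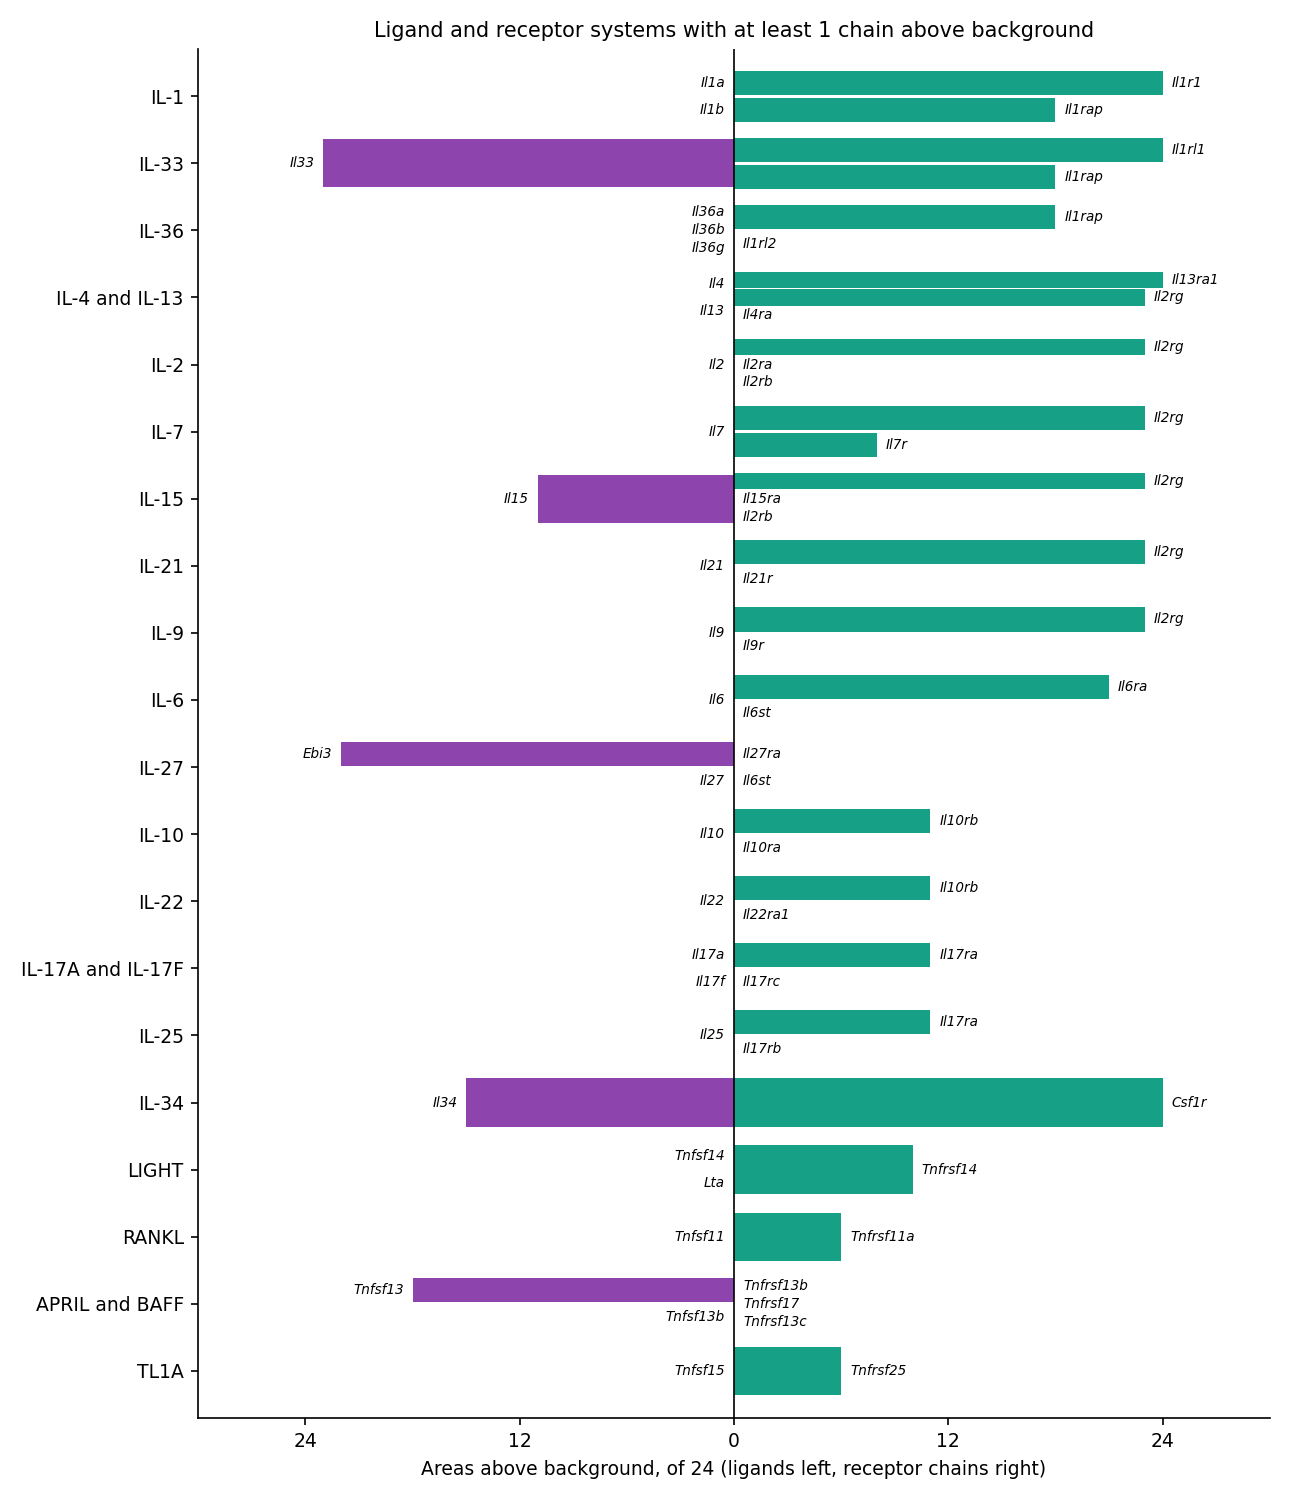
Number of the 24 areas in which each ligand (left, purple) and receptor chain (right, green) was above background, for the 20 ligand and receptor systems with at least 1 chain above background in 4 or more areas. IL-33 and IL-34 are the systems with bars for a ligand and for every receptor chain.

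The recovered counts summed to between 86385 and 1476500 per area (median 340370). Segment 2 areas were shallower (86385 to 688507, median 170040) than Segment 1 areas (322151 to 1476500, median 533134), and 1 count was worth 0.423 to 3.07 units of signal in Segment 2, against 0.240 to 0.943 in Segment 1. The lowest value of an area was taken as 1 count, so a count of 0 cannot be told from 1. At this floor stood 0.110% to 46.9% of targets per area, with a median of 28.5% in Segment 2 and 2.19% in Segment 1. Between 8 and 20 members were above the background of an area, with a median of 11.5 in Segment 2 and 16.5 in Segment 1. Macrophage markers were above background for 6 of 10 genes (Cd68, Csf1r, Mrc1, Lyz2, C1qa and C1qc), and their summed signal was 876 to 893 units in CuNZ@Gel specimens, 744 to 995 in Gel and 817 to 914 in Sham. T cell markers were above background for 3 of 10 genes (Cd3e, Cd2 and Lck), neutrophil markers for 1 of 10 (S100a9), and mast cell and keratinocyte markers for none. The summed fibroblast signal (7 of 8 genes above background) was 10368 to 11286 units in CuNZ@Gel specimens, 3828 to 9140 in Gel and 14059 to 19178 in Sham. The summed pericyte and smooth muscle signal (5 of 8 above) was 468 to 589 units in CuNZ@Gel, 82.4 to 279 in Gel and 762 to 925 in Sham. The summed red cell signal (2 of 4 above) was 30.9 to 76.7 units in CuNZ@Gel, 39.8 to 47.5 in Gel and 940 to 1308 in Sham. Of the adipocyte markers 2 of 8 were above background (Fabp4 and Cd36, in 24 areas each), with a summed signal of 214 to 215 units in CuNZ@Gel specimens, 218 to 597 in Gel and 151 to 163 in Sham. The part of these marker differences in the member results below was not tested. In area RNA, fewer cells of a type and less RNA per cell cannot be told apart.

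**Figure D2:**
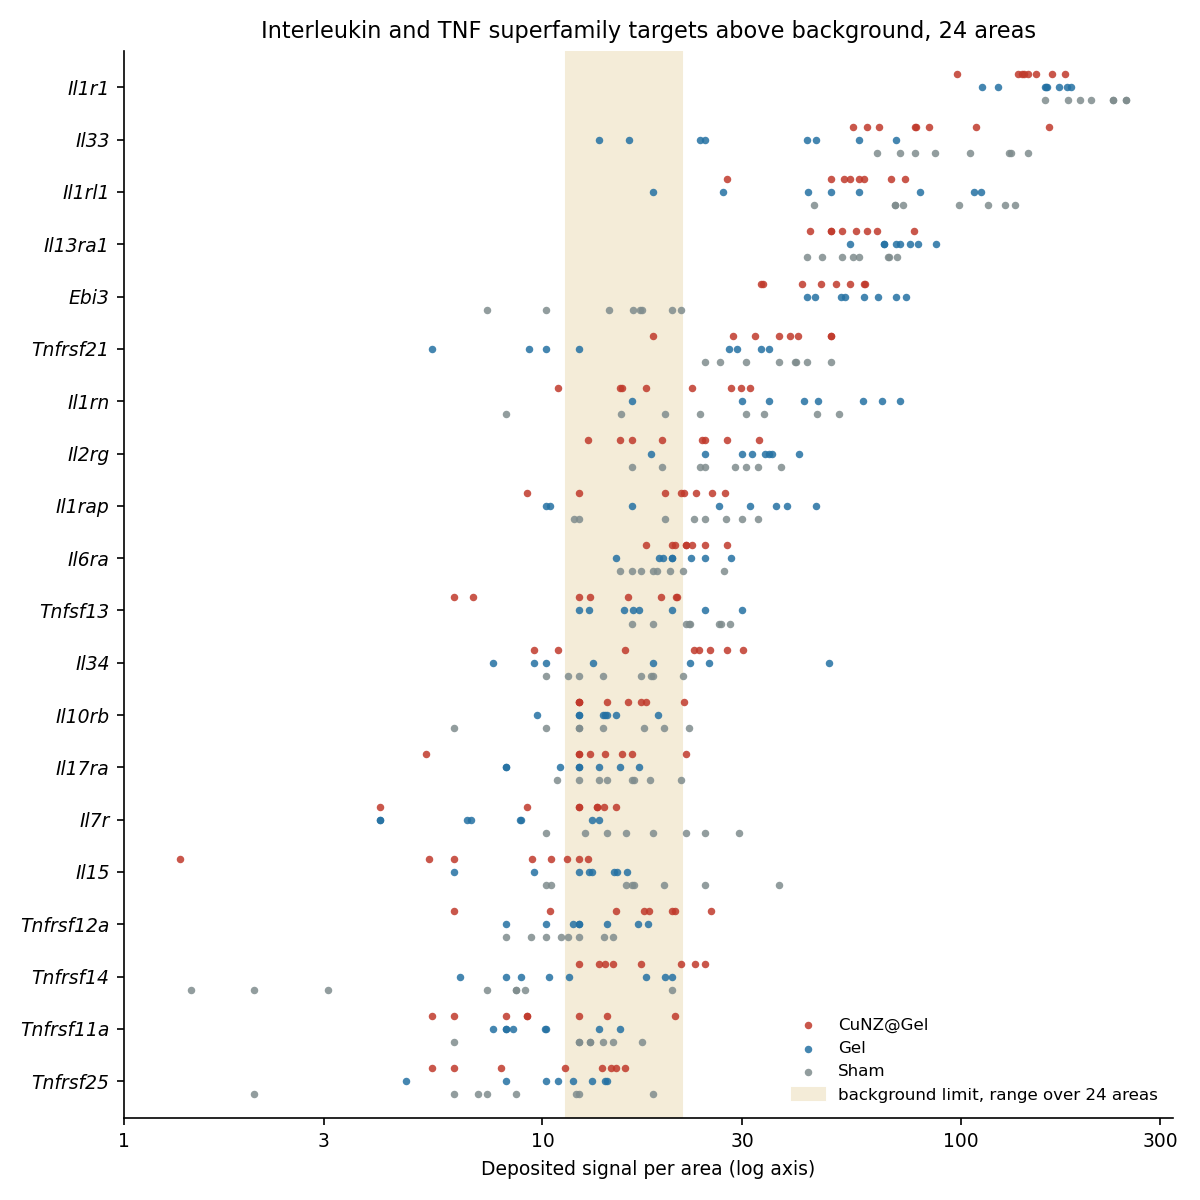
Deposited signal (log axis) of the 20 members above background in each of the 24 areas, with 1 row per member and 1 point per area in CuNZ@Gel (red), Gel (blue) and Sham (grey), and the range of the background limit over the areas shaded. The 8 Sham areas of Ebi3 lie between 7.36 and 21.5 units, left of every point of both gels.

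Gel against Sham set the wounds labelled Gel beside the Sham wounds, whose handling the labels do not describe. Ebi3 and Tnfrsf14 rose in Gel, as did the antagonist Il1rn and the receptor chain Il17re, whereas Il7r and Tnfrsf21 fell. These were 6 members of 114, and 478 of the 19728 targets tested (2.42%) passed the same threshold, an adjusted p under 0.05 in limma over all targets, 0.618% higher and 1.8% lower. Of the members above background 5 of 20 passed, 3 higher and 2 lower. Of all targets above background 7.85% passed, 1.66% higher and 6.19% lower. Both sets were chosen over areas that include those compared, so a target can enter through the group where it is high. Il7r entered with 6 Sham, 2 CuNZ@Gel and 0 Gel areas. In every treatment comparison, counts of areas above background come from the same values as the differences and add no support to them. The log2 differences of the 20 members ran from -1.59 to 1.85 with a median of 0.07, against a median of -0.15 over all 5554 targets above background. By rank scaling (quantile normalization) that median was 0.0085, so the differences are given beside this shift.

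Ebi3 had the largest difference. Its signal was 42.9, 55.7 and 74.0 units in the lowest, median and highest of the 8 Gel areas, against 7.36, 16.8 and 21.5 units in the 8 Sham areas. No Gel area overlapped any Sham area, which among the 20 members held for Ebi3 alone. The share of all targets without overlap was not counted, so this alone does not set Ebi3 apart from other targets. The specimen means were 57.3 ± 2.86 units in Gel and 15.6 ± 0.643 in Sham (SD, n = 2 each). The log2 difference was 1.85 (95% interval 1.45 to 2.25, adjusted p = 5.4e-13), or 3.61-fold on the scale of log2(signal + 1). The recovered counts behind it were 21 to 175 per Gel area and 3 to 71 per Sham area. Ebi3 was above background in 8 of 8 Gel areas and in 6 of 8 Sham areas, and the call was kept in all 22 alternatives (other scalings, pseudocounts, tools and filters, 1 segment alone, or 1 specimen left out) and without any 1 of the 24 areas.

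Tnfrsf21, the death receptor DR6, fell in Gel. Its signal was 5.45, 20.1 and 34.8 units in the lowest, median and highest Gel area, against 24.5, 38.5 and 49.1 units in Sham. In 4 of the 8 Gel areas it lay below every Sham area, and the other 4 lay within the Sham range. The low areas in Gel specimen 1 were its Segment 2 areas (5.45 and 9.30 units, against 29.2 and 33.4 in Segment 1 of the same regions), and in Gel specimen 2 both areas of region 2 (10.2 and 12.3 units). The specimen means were 20.3 ± 1.37 units in Gel and 36.4 ± 1.84 in Sham (SD, n = 2 each). The log2 difference was -1.03 (95% interval -1.44 to -0.62, adjusted p = 2.9e-04), and it was lost when Segment 1 areas were used alone (adjusted p = 0.117).

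Il7r, the receptor for the lymphocyte survival factor IL-7, fell as well. It reached 4.09, 7.80 and 13.6 units in the lowest, median and highest Gel area, against 10.2, 17.1 and 29.6 units in Sham. Il7r was above background in 0 of 8 Gel areas and in 6 of 8 Sham areas, and 6 Gel areas lay below the lowest Sham area. The difference was -1.10 on the log2 scale (95% interval -1.63 to -0.58, adjusted p = 0.0047), and 16 of 22 alternatives kept the call. It was lost without Sham specimen 1 (adjusted p = 0.544) and without Gel specimen 2 (adjusted p = 0.153). The 2 Sham specimens differed from each other, with means of 23.6 units in specimen 1 and 13.3 in specimen 2. The 3 T cell markers above background did not move together. Cd2 fell in Gel (log2 difference -1.04, adjusted p = 0.015). Cd3e had specimen means of 13.6 and 17.1 units in Gel and 7.39 and 8.03 in Sham (log2 difference 0.86, adjusted p = 0.080), and Lck differed by 0.05 (adjusted p = 0.972). The summed T cell signal was 74.1 to 75.4 units in Gel specimens and 62.9 to 76.3 in Sham. Whether Il7r followed the number of T cells was not tested.

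The remaining 3 calls were weaker. Il1rn, which blocks the IL-1 receptor, had signals of 16.4, 44.0 and 71.5 units in the lowest, median and highest Gel area, against 8.18, 27.2 and 51.1 units in Sham. The ranges overlapped, and 3 Gel areas lay above every Sham area. Its specimen means were 59.2 and 31.7 units in Gel and 27.0 and 30.04 in Sham, so Gel specimen 1 stood apart from the other specimens. The log2 difference of 0.72 (95% interval 0.29 to 1.14, adjusted p = 0.048) was kept in 6 of 22 alternatives. With each of the 24 areas left out in turn, the Il1rn call was kept in 7 fits and lost in 17. Of the specimens left out in turn it held only without Gel specimen 2, and without Gel specimen 1 the adjusted p was 0.856. Tnfrsf14 (HVEM), the receptor for LIGHT and for the checkpoint protein BTLA, gave 12.9 ± 1.07 units in Gel and 7.60 ± 3.49 in Sham (SD, n = 2 each), a log2 difference of 0.91 (adjusted p = 0.036) that was also kept in 6 of 22. With 1 area left out the Tnfrsf14 call was kept in 15 of 24 fits. Left-out specimens gave it adjusted p-values of up to 0.736 (without Sham specimen 1), and it held only without Sham specimen 2. Il17re, a chain of the receptor for IL-17C, was above background in no area, with 5.92 to 13.5 units in Gel and 2.04 to 6.13 in Sham areas. Its log2 difference was 1.06 (adjusted p = 0.023), kept in 20 of 24 fits without 1 area. As few as 1 count, the floor of an area, stood behind a Sham value. The call was lost without Gel specimen 1 (adjusted p = 0.404), Sham specimen 1 (0.264) or Sham specimen 2 (0.058).

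For CuNZ@Gel against Sham, the gel that carries the CuNZ label was set beside the Sham wounds. Here 3 members of 114 passed, Ebi3 and Tnfrsf14 upwards and Il15 downwards, against 259 of 19728 targets (1.31%, of which 0.324% higher and 0.988% lower). All 3 were among the 20 members above background, where 4.34% of all targets above background passed, 0.864% higher and 3.47% lower. The Sham areas are the same as in Gel against Sham, so the Ebi3 results of both comparisons rest in part on the same 8 values. The median log2 difference of the 20 members was -0.18, and of all targets above background -0.15.

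Ebi3 gave 33.3, 48.3 and 59.0 units in the lowest, median and highest CuNZ@Gel area, again above every Sham area (at most 21.5 units). Here too the share of all targets without overlap was not counted. Its specimen means were 47.2 ± 10.5 units in CuNZ@Gel and 15.6 ± 0.643 in Sham (SD, n = 2 each), a log2 difference of 1.57 (95% interval 1.17 to 1.97, adjusted p = 1.9e-09). The call was kept in 22 of 22 alternatives. Between the gels the Ebi3 difference was -0.28 (95% interval -0.68 to 0.12, adjusted p = 0.933).

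Tnfrsf14 had 12.3, 15.9 and 24.5 units in the lowest, median and highest CuNZ@Gel area, against 1.44, 8.01 and 20.4 units in Sham. It was above background in 6 of 8 CuNZ@Gel areas, 3 of 8 Gel areas and 1 of 8 Sham areas. The 1 Sham area was Segment 2 of region 2 in specimen 2, at 20.4 units, while the other 7 lay at 9.11 units or lower. The log2 difference from Sham was 1.39 (95% interval 0.87 to 1.92, adjusted p = 2.2e-04), or 2.63-fold, and 19 of 22 alternatives kept it. It was lost with DESeq2, in Segment 2 alone and without Sham specimen 1 (adjusted p of at most 0.186, and 0.134 for the last). The counts behind it were 7 to 42 per CuNZ@Gel area and 1 to 36 per Sham area, so single counts weigh in the low Sham areas.

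Il15, which keeps natural killer and memory T cells alive, fell in CuNZ@Gel. Its signal was 1.36, 9.97 and 12.9 units in the lowest, median and highest CuNZ@Gel area, against 10.2, 16.5 and 36.8 units in Sham. In 4 of 8 CuNZ@Gel areas it lay below every Sham area. It was above background in 1 CuNZ@Gel area, 4 Gel areas and 6 Sham areas. The specimen means were 8.67 ± 2.22 units in CuNZ@Gel and 18.8 ± 7.60 in Sham (SD, n = 2 each), with a log2 difference of -1.10 (95% interval -1.62 to -0.58, adjusted p = 0.0087). The lowest value was 1 recovered count, the floor of its area, in Segment 2 of region 1 of CuNZ@Gel specimen 2. Without that area the adjusted p was 0.072. The call was kept in 14 of 22 alternatives. It was lost with edgeR, with DESeq2, with scaling by the total count of an area, and in limma without trend and robust variance. Segment 1 alone and Segment 2 alone also lost it, as did leaving out CuNZ@Gel specimen 2 or Sham specimen 1. Over the 22 alternatives the log2 difference of Il15 ran from -1.55 to -0.61. The receptor chain Il15ra was above background in no area.

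CuNZ@Gel against Gel set the 2 gels beside each other, and the labels do not say whether they differ in CuNZ alone. Here 2 members passed: Tnfrsf21 was higher in CuNZ@Gel and Il1rn lower. In all, 186 of 19728 targets passed (0.943%, with 0.623% higher and 0.319% lower), and of those above background 3.24% passed, 2.16% higher and 1.08% lower. Tnfrsf21 gave 18.4, 37.9 and 49.1 units in the lowest, median and highest CuNZ@Gel area, against 5.45, 20.1 and 34.8 units in Gel. Of the CuNZ@Gel areas 5 lay above every Gel area. The log2 difference was 1.02 (95% interval 0.61 to 1.43, adjusted p = 6.1e-04), and CuNZ@Gel and Sham differed by -0.01 (95% interval -0.42 to 0.40, adjusted p = 0.994). Il1rn gave 10.9, 20.3 and 31.3 units in CuNZ@Gel areas, against 16.4, 44.0 and 71.5 units in Gel, and 3 CuNZ@Gel areas lay below every Gel area. Its specimen means were 21.5 ± 0.335 units in CuNZ@Gel and 45.5 ± 19.5 in Gel (SD, n = 2 each), and the log2 difference was -1.01 (95% interval -1.43 to -0.58, adjusted p = 0.0016). The Il1rn call was kept in 14 of 22 alternatives and lost without 1 area, Segment 1 of region 1 of Gel specimen 2 (adjusted p = 0.084). It was also lost without Gel specimen 1 (adjusted p = 0.517), CuNZ@Gel specimen 1 (0.063) or CuNZ@Gel specimen 2 (0.073). The Tnfrsf21 call was kept in 16 of 22 and lost without CuNZ@Gel specimen 2 (adjusted p = 0.055). Both calls share their Gel specimens with the calls for the same genes against Sham.

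**Figure D3:**
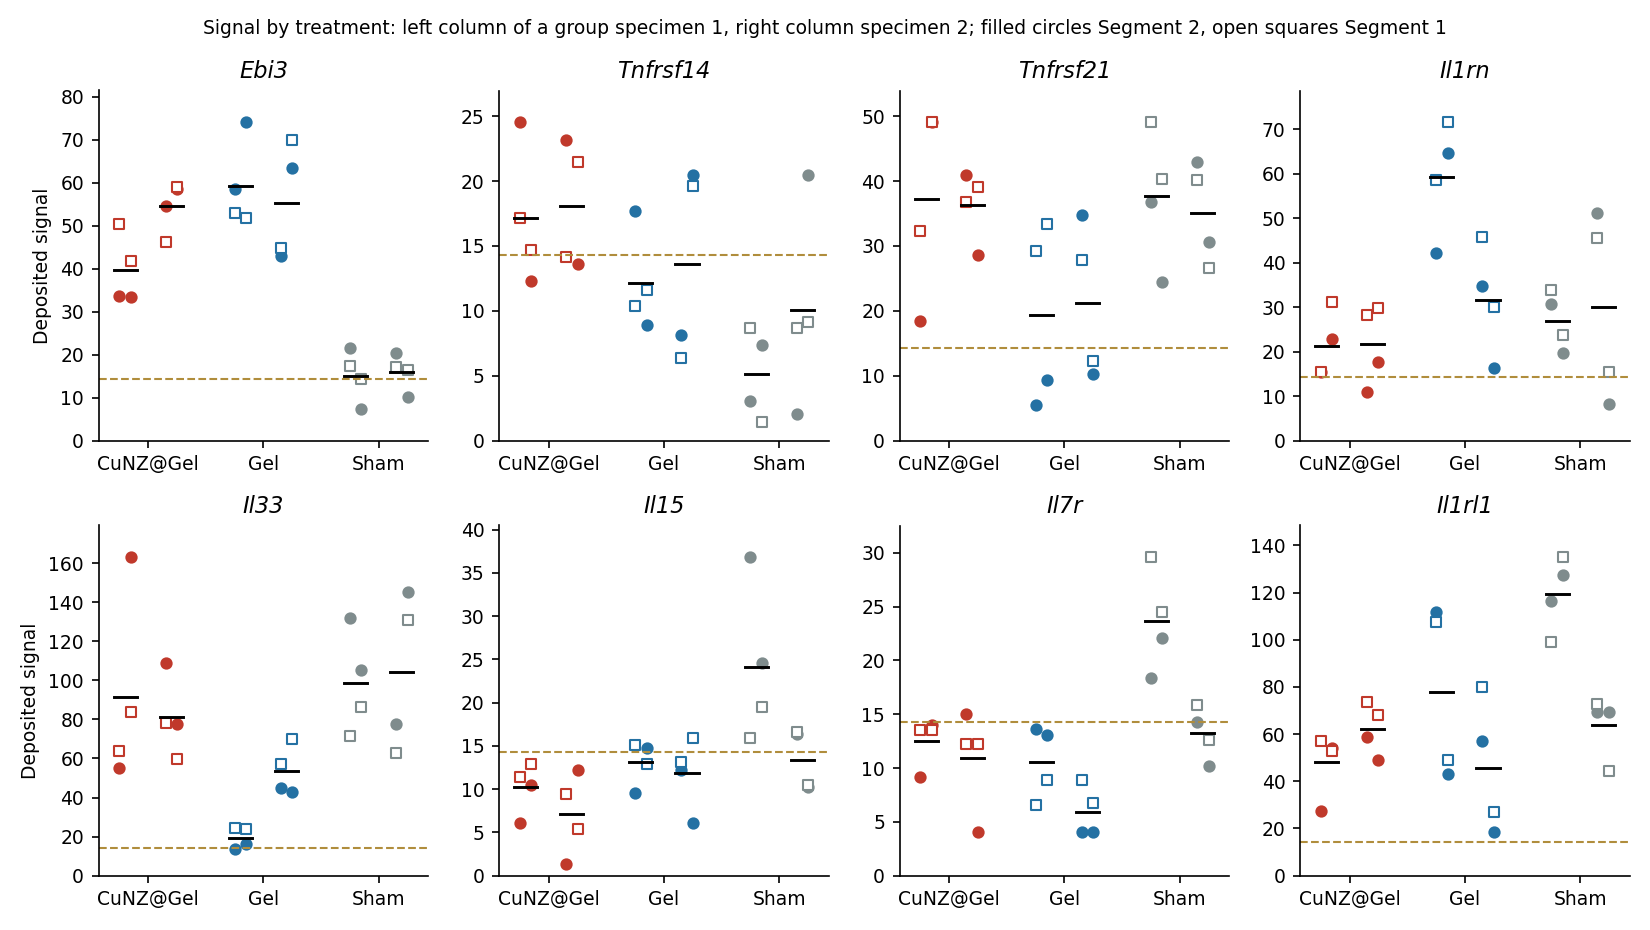
Deposited signal of 8 members in CuNZ@Gel, Gel and Sham, with specimen 1 left and specimen 2 right within a treatment, filled circles for Segment 2, open squares for Segment 1, bars at the mean of the 4 areas of a specimen and a dashed line at the median background limit of 14.3 units. Ebi3 is the panel in which the areas of both gels stand clear of all Sham areas, and Il33 the one in which the 2 Gel specimens separate.

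**Figure D4:**
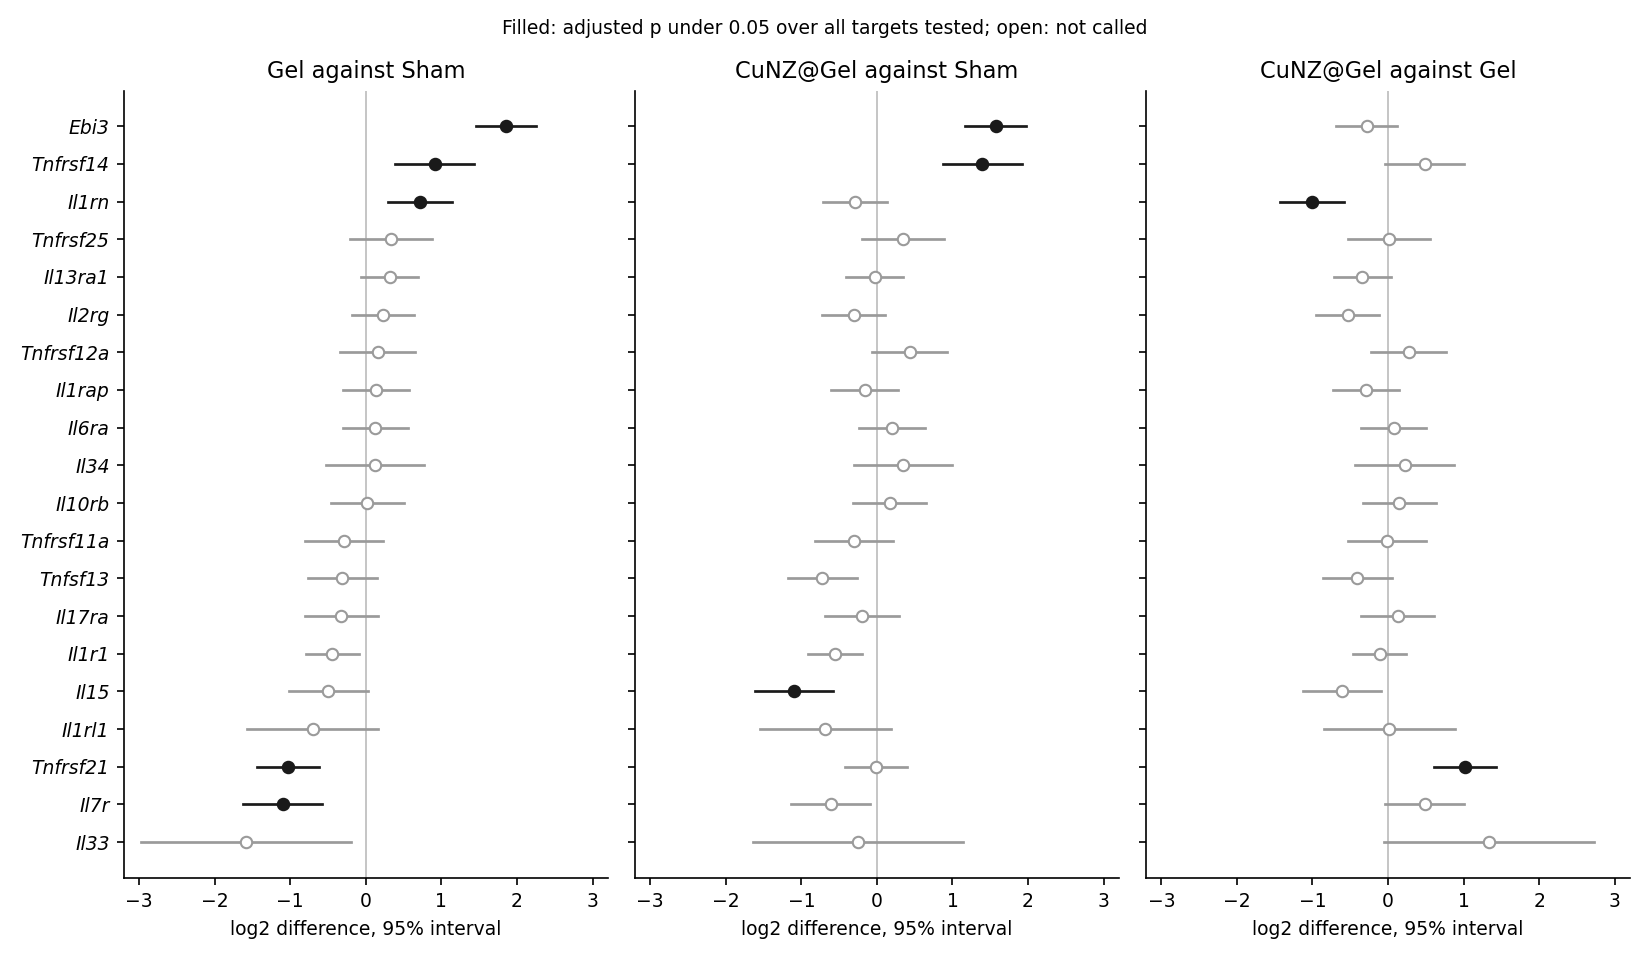
Log2 differences with 95% intervals for the 20 members above background in the 3 treatment comparisons, filled where the adjusted p was under 0.05. Ebi3 and Tnfrsf14 are filled on the right in both comparisons with Sham, and Il33 has the widest intervals.

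Promoter sequence was at hand for 14 of the 20 members, as 250 bases before the gene start in RefSeq on GRCr8. Those of the members that changed between treatments are shown (Il1rn, Tnfrsf21, Il15 and Il7r), with Il1r1 for comparison with Il1rn, its antagonist. Capitals mark letters that were searched on both strands: GGG, any 3 bases, then TTCC for NF-kB, TTC, any 3 bases, then GAA for STAT, TGA, any base, then TCA for AP-1, GAAA, any 2 bases, then GAAA for the interferon element ISRE, GGGCGG for a GC box and TATAAA for a TATA box. They lie at chr3:27520072-27520321 (plus strand, Il1rn), chr9:50034133-50034382 (plus strand, Il1r1), chr9:25451324-25451573 (minus strand, Tnfrsf21), chr19:42544456-42544705 (plus strand, Il15) and chr2:60204918-60205167 (minus strand, Il7r).
Il1rn: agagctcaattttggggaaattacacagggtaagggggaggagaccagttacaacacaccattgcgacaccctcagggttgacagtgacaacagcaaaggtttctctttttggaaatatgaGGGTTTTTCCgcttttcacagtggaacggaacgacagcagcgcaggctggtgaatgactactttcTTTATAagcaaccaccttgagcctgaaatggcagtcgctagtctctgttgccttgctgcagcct
Il1r1: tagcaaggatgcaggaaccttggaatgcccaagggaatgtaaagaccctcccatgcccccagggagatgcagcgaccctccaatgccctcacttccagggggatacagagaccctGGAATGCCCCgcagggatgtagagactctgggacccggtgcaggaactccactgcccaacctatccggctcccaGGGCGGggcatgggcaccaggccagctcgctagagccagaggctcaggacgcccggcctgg
Tnfrsf21: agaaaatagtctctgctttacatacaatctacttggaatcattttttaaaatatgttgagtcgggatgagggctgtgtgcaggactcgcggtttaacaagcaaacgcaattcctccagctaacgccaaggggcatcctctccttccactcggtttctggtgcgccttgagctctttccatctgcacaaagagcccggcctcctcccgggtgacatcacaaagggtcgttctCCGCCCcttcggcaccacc
Il15: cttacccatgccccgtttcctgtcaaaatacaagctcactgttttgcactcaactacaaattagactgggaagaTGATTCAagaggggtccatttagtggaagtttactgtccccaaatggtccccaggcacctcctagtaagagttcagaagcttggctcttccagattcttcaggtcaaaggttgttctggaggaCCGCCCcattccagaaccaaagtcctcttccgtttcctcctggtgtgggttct
Il7r: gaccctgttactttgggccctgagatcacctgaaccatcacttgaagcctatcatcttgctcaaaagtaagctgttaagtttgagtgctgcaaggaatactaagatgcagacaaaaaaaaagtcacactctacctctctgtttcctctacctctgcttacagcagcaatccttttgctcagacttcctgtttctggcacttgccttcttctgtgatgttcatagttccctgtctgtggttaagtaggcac
The NF-kB letters stood in 2 of the 14 windows, Il1rn (129 to 120 bases before the start) and Il1r1 (135 to 126 bases before), and in 4.53% of all 33469 rat windows of the same length. The match lies on the strand of the gene in Il1rn and on the opposite strand in Il1r1. Distances were not compared over other windows, so nothing is read from how near these are. Il1rn also holds the TATA letters, on the opposite strand (64 to 59 bases before). The AP-1 letters stood in Il15 alone and the STAT letters in Tnfrsf12a alone, with 6.34% and 7.67% of all windows holding them. A GC box stood in 9 of 14 windows, against 30.5% of all windows, and it is the one match in Tnfrsf21. Il7r held none of the 6 motifs. These matches describe letters and not sites that a factor was measured to bind.

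Il33 did not pass in the fit over all 6 specimens, but several alternatives called it. This alarmin is held in the nuclei of barrier and stromal cells and released on damage. It gave 55.2, 78.0 and 163 units in the lowest, median and highest CuNZ@Gel area, 13.6, 33.7 and 69.9 in Gel, and 63.0, 96.0 and 145 in Sham. Of the Gel areas 7 lay below every Sham area. The Gel specimens differed from each other, with means of 19.5 units in specimen 1 and 53.7 in specimen 2. The log2 difference of Gel from Sham was -1.59 (95% interval -2.98 to -0.20, adjusted p = 0.347) and that of CuNZ@Gel from Gel 1.33 (95% interval -0.06 to 2.72, adjusted p = 0.760). Alternatives called Il33 lower in Gel than in Sham in 8 of 22 cases (log2 differences of -2.30 to -0.87 over the 8). Among them were edgeR, Segment 2 alone and median scaling, and also the 24 areas as samples, which are not replicates. The fits without Gel specimen 1 or Gel specimen 2 were among the 8 too. Each leaves 1 Gel specimen, so the difference between the Gel specimens drops out and the call adds no support. Il33 was called higher in CuNZ@Gel than in Gel in 4 of 22 (1.33 to 2.05). These were Segment 2 alone, median scaling, the 24 areas as samples and the fit without Gel specimen 2, with the same limits. The fibroblast markers also stood lowest in Gel specimen 1, at a sum of 3828 units against 9140 in Gel specimen 2, and their part in the Il33 values was not tested.

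The receptors Il1r1 and Il1rl1 had lower means in both gels than in Sham without passing, and the accessory chain Il1rap had a lower mean in CuNZ@Gel and a higher one in Gel. Il1r1, the signalling receptor for IL-1, gave 144 ± 7.07 units in CuNZ@Gel, 156 ± 16.7 in Gel and 212 ± 16.3 in Sham (SD, n = 2 each). Its log2 difference from Sham was -0.55 for CuNZ@Gel (adjusted p = 0.120) and -0.44 for Gel (adjusted p = 0.241), and 6 of 8 CuNZ@Gel areas lay below every Sham area. Il1rl1 gave 55.2 ± 10.2 units in CuNZ@Gel, 61.8 ± 22.8 in Gel and 91.7 ± 39.2 in Sham, with log2 differences from Sham of -0.69 and -0.70 (adjusted p = 0.588 and 0.530). Its Sham specimens were apart, at 119 and 64.0 units. In all, Il1rl1 was called lower in 5 of 22 alternatives for CuNZ@Gel and in 3 of 22 for Gel. Both counts include the fit without Sham specimen 2. That fit leaves 1 Sham specimen, so the difference between the Sham specimens drops out and the call adds no support. Il1r1 was called lower in 4 of 22 alternatives for CuNZ@Gel, including the fits without Gel specimen 1 or Gel specimen 2. In these fits the difference between the Gel specimens no longer enters the shared spread. For Gel, Il1r1 was called in 1 of 22, the 24 areas taken as samples. Il1rap gave 20.0 ± 5.59 units in CuNZ@Gel, 26.8 ± 1.07 in Gel and 22.7 ± 1.36 in Sham, with log2 differences of 0.13 for Gel from Sham, -0.16 for CuNZ@Gel from Sham and -0.29 for CuNZ@Gel from Gel, none of which passed.

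Among the chains used by lymphocyte cytokines, Il2rg gave 21.6 ± 0.949 units in CuNZ@Gel, 31.2 ± 2.57 in Gel and 26.7 ± 0.398 in Sham (SD, n = 2 each). The log2 difference of CuNZ@Gel from Gel was -0.53 (95% interval -0.95 to -0.12, adjusted p = 0.443), and it was called in Segment 1 areas alone. Il13ra1, which pairs with Il4ra to read IL-4 and IL-13, gave 56.3 ± 6.02 units in CuNZ@Gel, 71.1 ± 1.85 in Gel and 57.3 ± 10.9 in Sham. Its difference of Gel from Sham was 0.31 (95% interval -0.06 to 0.69, adjusted p = 0.535), which was called with quantile scaling alone of 22 alternatives, and its partner Il4ra was above background in no area. Il10rb, a shared chain for IL-10 and IL-22, and Il17ra, the shared chain of the IL-17 receptors, did not pass either, and of the 3 comparisons the difference farthest from 0 was 0.17 for Il10rb (CuNZ@Gel from Sham) and -0.32 for Il17ra (Gel from Sham). Il6ra, the IL-6 binding chain, had specimen means between 17.9 and 23.6 units and areas between 15.0 and 28.3 units.

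Of the TNF superfamily, Tnfsf13 (APRIL), a survival factor for plasma cells, was above background in 4 of 8 CuNZ@Gel, 6 of 8 Gel and 8 of 8 Sham areas. It gave 14.4 ± 3.37 units in CuNZ@Gel, 18.7 ± 5.65 in Gel and 22.9 ± 0.670 in Sham (SD, n = 2 each), and 5 CuNZ@Gel areas lay below every Sham area. The log2 difference of CuNZ@Gel from Sham was -0.72 (95% interval -1.18 to -0.27, adjusted p = 0.113), called in 1 of 22 alternatives, the 24 areas taken as samples. Tnfrsf12a (Fn14), the receptor for TWEAK, was above background in 5 CuNZ@Gel, 2 Gel and 1 Sham area, and 6 CuNZ@Gel areas lay above every Sham area. Its log2 difference of CuNZ@Gel from Sham was 0.43 (95% interval -0.06 to 0.93, adjusted p = 0.555). Tnfrsf11a (RANK) and Tnfrsf25 (DR3) stayed close to the background limit, at no more than 20.8 and 18.4 units. Il34, the other ligand of Csf1r, differed more between the 2 Gel specimens (10.1 and 28.6 units) than between treatments.

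Segment 2 against Segment 1 compared the areas drawn side by side in the same 12 regions. Of the 20 members above background 0 passed in limma, against 5.49% of all targets above background. At an unadjusted p under 0.05 stood 18 of the 114 members. The share of all targets at that looser threshold was not counted, so the 18 are not read as an excess. The 2 members called were Il27 (log2 difference 0.79, adjusted p = 0.048) and Il22ra2, a soluble decoy for IL-22 (0.83, adjusted p = 0.026), among 381 of 19728 targets (1.93%), with 0.34% higher and 1.59% lower. Both were above background in no area. Il22ra2 gave 2.04 to 10.2 units in Segment 2 and 0.613 to 3.13 in Segment 1, from 1 to 13 counts per area. Both calls were lost when the recovered counts of the 2 segments of a region were thinned to the same total, and leaving out 1 specimen ended the Il27 call in 5 of 6 cases and the Il22ra2 call in 4 of 6. Of the 20 members 18 had a negative difference, with a median of -0.23 against -0.20 for all targets above background. Il13ra1 was lower in Segment 2 in 12 of 12 regions, with ratios between 0.722 and 0.957 (log2 difference -0.28, adjusted p = 0.170, called with median scaling). Il1rn was lower in 11 of 12 regions (log2 difference -0.45, adjusted p = 0.071, called with median scaling and over the targets above background alone).

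No member passed the test of whether the segment difference depended on treatment (0 of 114 in limma, against 10 of 19728 targets, 0.0507%, and 0.18% of those above background, with Il33 at the smallest unadjusted p of the members, 1.0e-04). For Il33 the log2 difference of Segment 2 from Segment 1 was 0.40 in CuNZ@Gel, -0.59 in Gel and 0.40 in Sham (adjusted p of the interaction 0.106). In Gel its Segment 2 areas gave 13.6, 16.1, 45.0 and 42.9 units, against 24.5, 23.8, 57.1 and 69.9 units in Segment 1 of the same regions, so Segment 2 was the lower one in 4 of 4.

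In 11 of the 20 members the median difference was larger between the 2 regions of a specimen than between the 2 segments of a region. The share over all targets was not counted, so this count is not read as a trait of the members. For Il1rap the median difference was 0.41 log2 units between regions and 0.22 between segments. In Gel specimen 2 Il1rap gave 45.0 and 38.5 units in Segments 2 and 1 of region 1, and 10.2 and 10.4 units in region 2. In Sham specimen 2 it gave 32.7 and 30.1 units in region 1, and 12.3 and 11.9 in region 2. In these 2 specimens both segments of a region read alike for Il1rap while the regions stood apart. In CuNZ@Gel specimen 1 the segments differed instead, at 9.20 and 19.6 units in Segments 2 and 1 of region 1, and 12.3 and 23.3 in region 2. Il1rn also differed between the regions of Sham specimen 2, at 51.1 and 45.4 units in region 1, and 8.18 and 15.4 in region 2. The region difference of Il1rap and of Il1rn had the same direction in 6 of 6 specimens, a pair picked out after the values were seen from 190 possible pairs. Other pairs did so too, among them Il15 with Il1rn, Il15 with Il1rap and Il7r with Tnfrsf21. It also held for Il13ra1 with Il7r, which ran in opposite ways across the 12 regions (Pearson r = -0.48). The agreement is therefore not particular to Il1rap and Il1rn. Il1rl1 gave 112 and 108 units in region 1 of Gel specimen 1, and 43.1 and 49.1 in region 2. The summed fibroblast signal was 12004 units in region 1 and 26352 in region 2 of Sham specimen 2, and 7210 and 11070 units in regions 1 and 2 of Gel specimen 2. The part of tissue composition in these region differences was not tested.

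**Figure D5:**
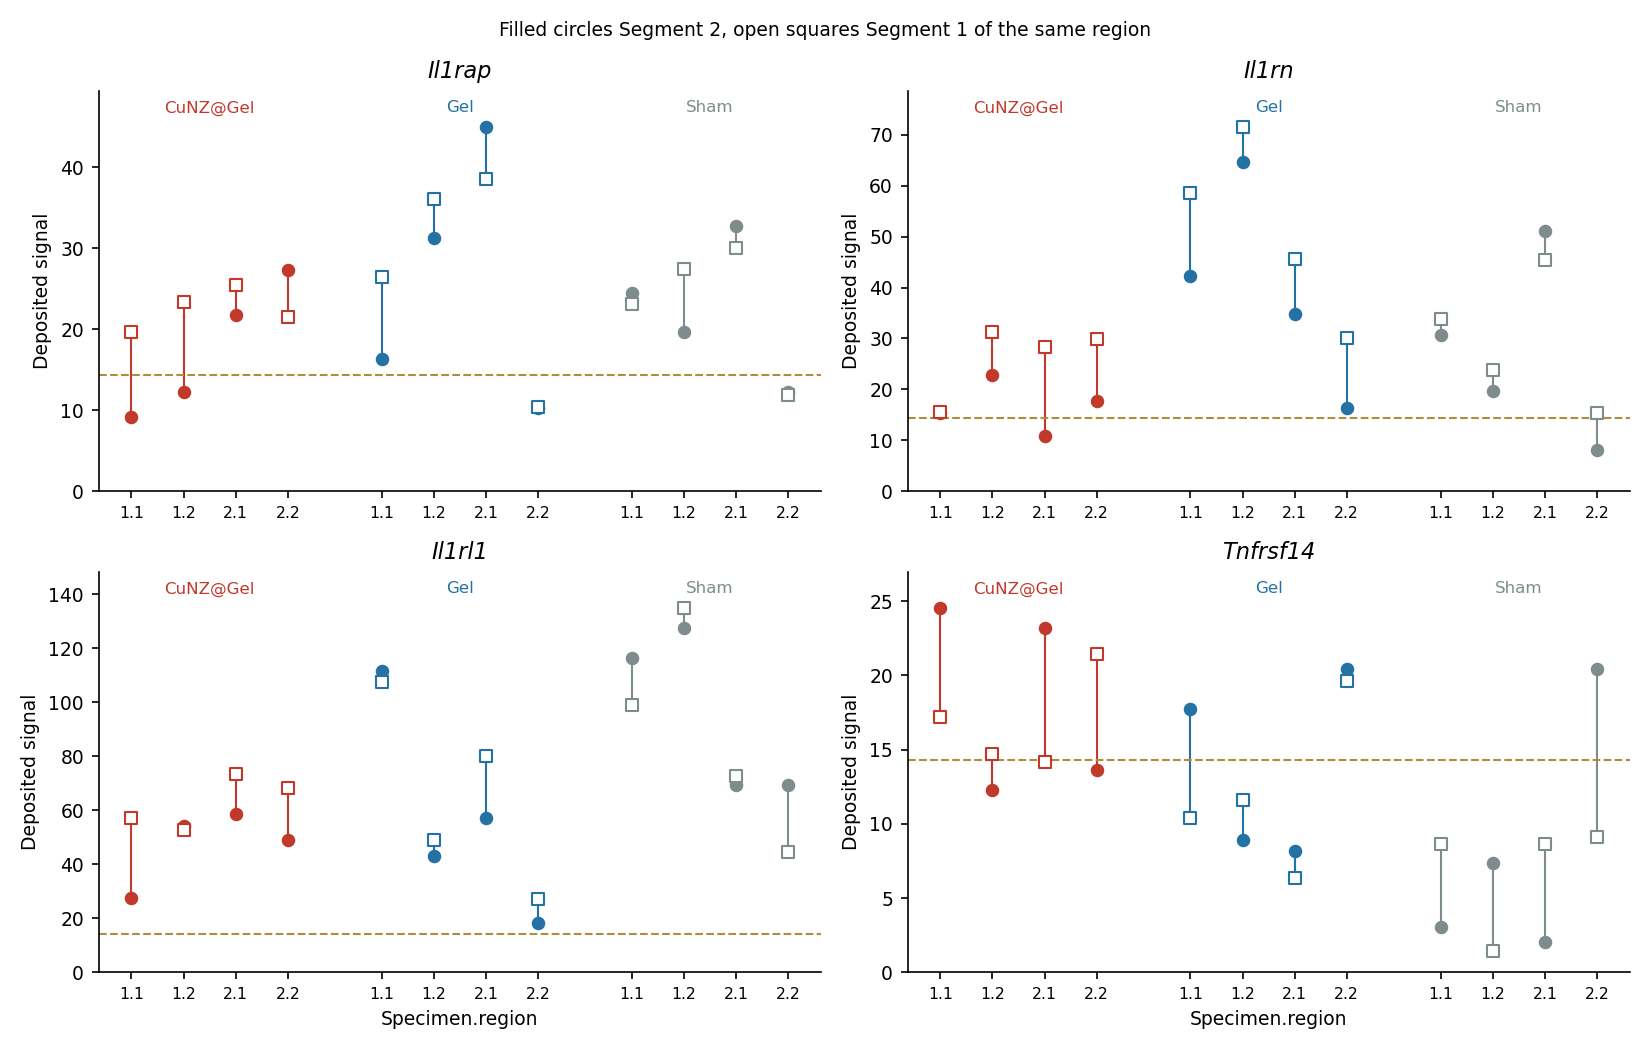
Deposited signal of Il1rap, Il1rn, Il1rl1 and Tnfrsf14 in each of the 12 regions (specimen number, then region number), with a filled circle for Segment 2 and an open square for Segment 1 joined by a line, and a dashed line at 14.3 units, the median background limit. Region 2 of Gel specimen 2 and of Sham specimen 2 are low for Il1rap in both segments.

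Genes of the same pathways that carry other symbols were called at 1.83% in Gel against Sham, 0.917% in CuNZ@Gel against Sham, 1.83% in CuNZ@Gel against Gel and 1.83% between segments. The shares over all targets were 2.42%, 1.31%, 0.943% and 1.93% in the same order, so with 1 or 2 genes called per comparison nothing particular to these pathways is read from the counts. In 9 lists with 109 genes tested (adaptors of IL-1 and Toll receptors, the inflammasome, NF-kB, JAK and STAT, TNF receptor signalling, further IL-6 and TNF family members, cytokine chain partners and target genes), Gel against Sham called 1 gene higher (Csf2rb2, a beta chain of the GM-CSF receptor family, 0.97, adjusted p = 0.049) and 1 lower (Eda, a TNF family ligand, -1.28, adjusted p = 0.0021). Neither was above background in 4 areas. CuNZ@Gel against Sham called 1 gene, Nfkbia, the inhibitor that NF-kB itself induces, with specimen means of 26.2 and 39.6 units in CuNZ@Gel and 19.7 and 18.0 in Sham (0.75, adjusted p = 0.043). CuNZ@Gel against Gel called 2 genes lower, the cholesterol hydroxylase Ch25h (-0.95, adjusted p = 0.032) and the inflammasome adaptor Pycard (-0.85, adjusted p = 0.047). Segment 2 against Segment 1 called 2 lower, Csf1r (-0.49, adjusted p = 6.9e-04) and Txnip (-0.51, adjusted p = 0.0012), which binds NLRP3. Among the targets above background in 24 areas were Jak2, Stat3, Stat6, Socs3, Nfkb1, Nfkb2, Irak3 and Tollip. Socs3, induced by STAT3, gave specimen means of 115 and 157 units in CuNZ@Gel, 182 and 126 in Gel and 183 and 132 in Sham, without passing in any comparison.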

How the data were processed

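The deposited files hold 1 signal per target and area. Per the labels, they come from GeoMx; the authors' scaling is seen in the values, whose 75th percentile is 12.1 to 12.3 units in every area. Between 99.98% and 99.995% of the signal values per area were whole multiples (within 0.01) of the lowest value, taken as 1 count, and these recovered counts were used for depth, edgeR and DESeq2. No aligner or genome build is named in the labels or files. The plan foresaw edgeR for raw counts, but the files held scaled signal, so limma 3.58.1 (R 4.3.3) was fitted to log2(signal + 1), averaged per specimen for treatments and per specimen and segment for segments, with trend and robust variance and Benjamini-Hochberg adjustment over the 19728 targets above the negative probe in 4 or more areas. edgeR 4.0.16 and DESeq2 1.42.0 were alternatives. The fits were tested on simulated data. The members and gene lists were chosen with earlier results of these data known; named members are those above background or called. Columns of other samples numbered 0. Specimen numbers do not pair treatments (correlations of deviations -0.025, -0.032 and 0.0037).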

Additional observations from a re-analysis of the deposited data

Results flagged for a closer look

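In 6 of 60 sets of 8 areas (20 members in 3 treatments), 1 area lay far from the other 7 on the scale of log2(signal + 1). The gap to the nearest area, as a share of the whole range on that scale, exceeded Dixon's limit of 0.526, which chance passes in about 1 in 20 sets. All 6 were the lowest area of their set and all were Segment 2 areas. A log scale widens gaps at the low end, and on the deposited signal, a scale added after seeing the data, Tnfrsf11a alone of the 6 was over the limit. In CuNZ@Gel, Il15 stood at 1.36 units in region 1 of specimen 2 (share 0.56 on the log2 scale and 0.348 on the signal, nearest area 5.37). Il17ra stood at 5.26 units in region 2 of specimen 1 (share 0.576 and 0.417, nearest 12.3). In region 1 of the same specimen Il1r1 stood at 98.1 units (share 0.567 and 0.494, nearest 137) and Il1rl1 at 27.6 (share 0.584 and 0.467, nearest 49.1). Il7r stood at 4.09 units in region 2 of specimen 2 (share 0.607 and 0.469, nearest 9.20). In Sham, Tnfrsf11a stood at 6.13 units in region 1 of specimen 2 (share 0.658 and 0.548, nearest 12.3). On the deposited signal 3 of 60 sets held an area over the limit. Besides Tnfrsf11a these were the highest areas of Il34 in Gel (region 2 of specimen 2, Segment 1, share 0.575) and of Tnfrsf14 in Sham (region 2 of specimen 2, Segment 2, share 0.596).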

How the results depend on the processing

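No called member changed direction in any alternative run. The number of members called for Gel against Sham was 6. It was 2 with DESeq2, 3 without the variance trend and robust fit, and 2 to 8 with 1 specimen left out (2 without Sham specimen 1). For CuNZ@Gel against Sham it was 3, against 5 over 24 single areas, 1 with DESeq2, 5 with only the 2 groups in the fit, and 1 to 5 with 1 specimen left out (1 without Sham specimen 1). For CuNZ@Gel against Gel it was 2, against 1 over 24 areas, 0 with DESeq2, 1 with edgeR, 0 without trend, 1 with quantile scaling, and 0 to 3 with 1 specimen left out (0 without CuNZ@Gel specimen 2). For the segments it was 2, against 0 without trend, 5 with median scaling, 1 with targets above background only, 1 with a pseudocount of 10, 0 with quantile scaling, 0 after thinning, and 0 to 2 with 1 specimen left out (0 without CuNZ@Gel specimen 1, Gel specimen 1 or Sham specimen 2). With specimen number as a replicate block the counts were 7, 3 and 2 for the 3 treatment comparisons, although the numbers do not pair the specimens. The 20 members above background were 9 against the highest receptor target, 114 against the negative probe, and 20 without any 1 specimen. The cause was not tested.

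Over all targets, Gel against Sham called 478 (25.5% higher), against 771 over 24 areas, 164 with DESeq2 (15.2%), 308 in Segment 2 only, 176 without trend and 271 to 752 with 1 specimen left out. The share higher was 57.9% with CPM, 13.8% with median and 48.5% with quantile scaling. CuNZ@Gel against Sham called 259 (24.7% higher), against 517 over 24 areas, 64 with DESeq2, 116 in Segment 2 only, 165 with edgeR (38.8%), 44 without trend, 146 with median scaling, 461 with 2 groups, 162 with quantile scaling (49.4%) and 72 to 458 with 1 specimen left out, and 60.6% were higher with CPM. CuNZ@Gel against Gel called 186 (66.1% higher), against 57 with DESeq2, 119 in Segment 2 only (77.3%), 75 without trend and 95 to 293 with 1 specimen left out. The segments called 381 (17.6% higher), against 246 with CPM (46.7%), 0 without trend, 1326 with median scaling (4.5%), 130 with quantile scaling, 491 with targets above background only (0% higher), 117 after thinning (53.0%) and 198 to 404 with 1 specimen left out. The interaction called 10, against 0 without trend, 2 with median scaling, 1 with targets above background only, 2 with a pseudocount of 10 and 0 to 36 with 1 specimen left out. On recovered counts edgeR called 369, 165 and 138 targets in the treatment comparisons. The 2 specimens per treatment and low counts in Segment 2 limit what could be called.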

Other observations

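Across the 12 regions, and as a description only, Il1r1 and Tnfrsf14 ran in opposite ways (Pearson r = -0.93, Spearman rho = -0.94), and within specimens the region differences were opposite in 5 of 6. Il1r1 and Il1rl1 ran together (r = 0.80, the same direction in 5 of 6 specimens). These were picked from 190 pairs after the values were seen, the regions share specimens and treatments, and the means of both Il1r1 and Tnfrsf14 differ between treatments, which for Il1r1 did not pass.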
